A study of Mus musculus with 4 samples.

Results

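Arterial endothelial cells line the pial arteries and the arterioles that carry blood into the brain. They were studied here among dissociated whole-brain cells of 4 C57BL/6J mice, male according to the methods, with 1 mouse per pairing of an age (adult, aged) with a diet. The diets were modified AIN-93M feeds with 1% cellulose and either 0% inulin (low fiber) or 5% inulin (high fiber), and they began when adult mice were 3 to 4 and aged mice 23 to 24 months old. Adult mice were raised in house and aged mice came from an outside colony, so age and origin cannot be told apart. Whole brains were dissociated at 37°C, depleted of myelin, red cells and dead cells, and run through 10X Genomics 3′ chemistry, in which a molecular identifier (UMI) lets every captured RNA be counted once.

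Cells were chosen by their counts. A barcode was taken as endothelial with at least 1000 UMIs, a mitochondrial share under an upper limit, at least 20 UMIs of Cldn5, Flt1, Pecam1 and Ly6c1 per 10000, at most 4 UMIs of the pericyte genes Vtn, Kcnj8 and Abcc9, and under 15 UMIs of the C1q genes of microglia per 10000. It was called arterial with at least 4 UMIs of Bmx, Gkn3, Sema3g, Vegfc and Mgp together. This gave 2406 arterial cells of 8495 endothelial cells and 36876 barcodes. The adult mice fed 0% and 5% inulin had 603 and 667 arterial cells, and the aged mice had 516 and 620. In the same order the arterial cells held 6334570, 7133652, 6072599 and 7889675 UMIs. Below, paired values are for the mouse fed 0% and then the mouse fed 5% inulin, and CPM are counts scaled to a total of 1e6, from UMIs summed over the cells of a type in a mouse. With 2 mice an age or diet, p-values measure the spread between these mice only.

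Vessels of the brain change their endothelial identity from artery through capillary to vein. Arterial identity is set by vascular endothelial growth factor (VEGF) and Notch signals, and arterial cells join through connexins and rest on elastic matrix, while capillary cells carry much of the nutrient transport of the blood-brain barrier. Of the genes in the rule, Bmx encodes a tyrosine kinase of arterial endothelium (chromosome X, 164192842 to 164258193, GRCm38) and Gkn3 a secreted gastrokine (chromosome 6, 87383256 to 87388935). Sema3g encodes a semaphorin (chromosome 14, 31217860 to 31230352), Vegfc a growth factor (chromosome 8, 54077606 to 54187096) and Mgp the matrix Gla protein, an inhibitor of calcification and of bone morphogenetic protein (BMP) signals (chromosome 6, 136872435 to 136875823).

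Mgp supplied most of the marker UMIs. It made up 60.5% and 62.0% of them in adult mice, against 69.0% and 75.6% in aged mice, and Gkn3 made up 27.2% and 26.3%, then 20.7% and 16.0%. The rule set these values, so they are a description. Mgp read 3451 and 2901 CPM in the arterial cells of adult mice and 3701 and 4064 CPM in those of aged mice. Gkn3 read 1550.0 and 1232 CPM in adult and 1110.0 and 861 CPM in aged mice. The level of Gkn3 was lower in both aged mice than in either adult mouse, and so was that of Sema3g, at 287 and 248 CPM against 205 and 153 CPM. Bmx overlapped between ages, with 257 and 204 CPM against 241 and 201 CPM. Vegfc read 164 and 93.4 CPM against 108 and 95.3 CPM and overlapped too.

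Most arterial cells held several of the 5 genes. At least 3 of them were present in 82.4% and 75.6% of the arterial cells of adult mice and in 74.8% and 73.1% of those of aged mice. Cells that qualified through Mgp alone numbered 21 and 31 in adult and 30 and 57 in aged mice. Just inside the threshold, at 4 marker UMIs, lay 57, 79, 52 and 62 cells, and just outside, at 3, lay 86, 116, 77 and 104 endothelial cells. Arterial cells were deeper than other endothelial cells, with median totals of 8462 and 8341 UMIs against 5262 and 5317 in adult mice and 9175 and 9255 against 5485 and 5493 in aged mice. A rule on UMI counts admits deep cells more readily. When every cell was thinned to 2000 UMIs, Gkn3 was seen in 58.6% and 57.2% of arterial cells of adult mice and 54.1% and 51.5% of those of aged mice. In other endothelial cells the thinned share for Gkn3 was 2.39 to 3.39%, and in C1q-high barcodes, microglia that should lack it, 1.0 to 1.6%. Mgp was seen in 11.2 to 16.4% of thinned C1q-high barcodes, so a single Mgp UMI can be background. The shares of both genes in other endothelial cells (12.7 to 15.9% for Mgp) were limited by the rule and show nothing about background.

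The label was checked on 17 other arterial markers that the rule did not use. Of the 15 with a mean of at least 50 CPM in either type, 14 were higher in arterial than in other endothelial cells in each of the 4 mice, and 9 were at least 2-fold higher in each. Over all 3785 genes at that level, 2.14% were 2-fold higher in each mouse and 0.793% were 2-fold lower. Cytl1, which encodes a small secreted protein, had the largest ratio, with 78.6 and 65.5 CPM in adult and 77.9 and 150.2 CPM in aged arterial cells against 0.0917 to 0.432 CPM in other endothelial cells. The gap junction gene Gja4 (connexin 37) read 54.6 and 50.3 CPM in adult and 53.2 and 35.9 CPM in aged arterial cells, against 3.03 to 3.63 CPM elsewhere in the endothelium. Gja5 (connexin 40) read 9.31 and 7.43 CPM and then 3.46 and 4.94 CPM, against at most 0.183 CPM. The Notch target Hey1 read 148 and 153 CPM in adult and 169 and 135 CPM in aged arterial cells, against 32.0 to 54.4 CPM. Nrp1, a VEGF and semaphorin co-receptor, was the exception, with 112 to 126 CPM in arterial and 184 to 189 CPM in other endothelial cells. Of 7 venous markers at that level, 2 were higher in each mouse (Vwf, and Vcam1 at least 2-fold) and 1 was lower. Over all 3785 genes, 30.3% were higher and 29.9% lower in each mouse. Vcam1 read 248 to 382 CPM in arterial and 104 to 148 CPM in other endothelial cells. The cells were thus arterial by other arterial markers outside the rule, though some venous markers were higher in them too. Since the cells were picked by expression, these differences carry no test.

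Of 11 matrix genes at 50 CPM, 4 were at least 2-fold higher in arterial cells in each mouse, and 7 were higher and 3 lower in each. Over all 3785 genes at that level, 2.14% were 2-fold higher, 30.3% higher and 29.9% lower in each mouse, so the lower count was near that share. Among genes outside the rule with a mean of at least 50 CPM in the higher type, those with the largest ratio in the least favourable mouse were Cytl1, Nos1, Fbln5, Egfl8, Col18a1, Tmem100, Igfbp4, Fbln2, Gper1, Tspan2, Igfbp3, Cdh13, Tagln, Ccn3 and Atp2b4. Fbln5 and Fbln2 encode fibulins of elastic fibers. Fbln5 read 77.5 and 55.0 CPM in adult and 56.0 and 116 CPM in aged arterial cells against 1.56 to 2.69 CPM elsewhere. Only 11.1 to 15.9% of arterial cells had a UMI of Fbln5, 10 cells of a mouse held 40.8 to 71.2% of them, and its level was 168 to 475 CPM in the cells with most marker UMIs (60 or more per 10000). Fbln2 read 168 and 142 CPM, then 140 and 107 CPM, against 9.44 to 11.6 CPM. Nos1, the neuronal form of nitric oxide synthase, read 76.4 and 54.7 CPM in adult and 89.2 and 74.8 CPM in aged arterial cells against 1.58 to 3.10 CPM. Its endothelial form Nos3 was at a similar level in both types, with 187 to 224 CPM in arterial and 167 to 203 CPM in other endothelial cells. Elastin itself (Eln) read 103 and 105 CPM, then 116 and 133 CPM, against 11.6 to 24.5 CPM. Tagln is a smooth muscle gene, described further below.

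The genes furthest below other endothelial cells included known capillary genes. They were Car4, Ttyh2, Ndnf, Hmcn1, Tiam1, Tfrc, Slc16a1, Proser2, Adm and Slc1a1. Car4, a carbonic anhydrase of capillaries, read 94.7 and 130 CPM in adult and 84.6 and 107 CPM in aged arterial cells against 555 to 838 CPM elsewhere. The transferrin receptor Tfrc read 135 to 200 CPM against 496 to 592 CPM, and the monocarboxylate transporter Slc16a1 127 to 211 CPM against 419 to 673 CPM. All 10 capillary markers were lower in arterial cells in each mouse, 4 of them at least 2-fold. Of 18 barrier genes at 50 CPM, 14 were lower in each mouse and 4 of them at least 2-fold, while 29.9% of all 3785 genes were lower and 30.3% higher in each mouse. The glucose transporter Slc2a1 was slightly higher in arterial cells in each mouse, at 3135 to 3496 CPM against 2754 to 3269 CPM.

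**Figure D1:**
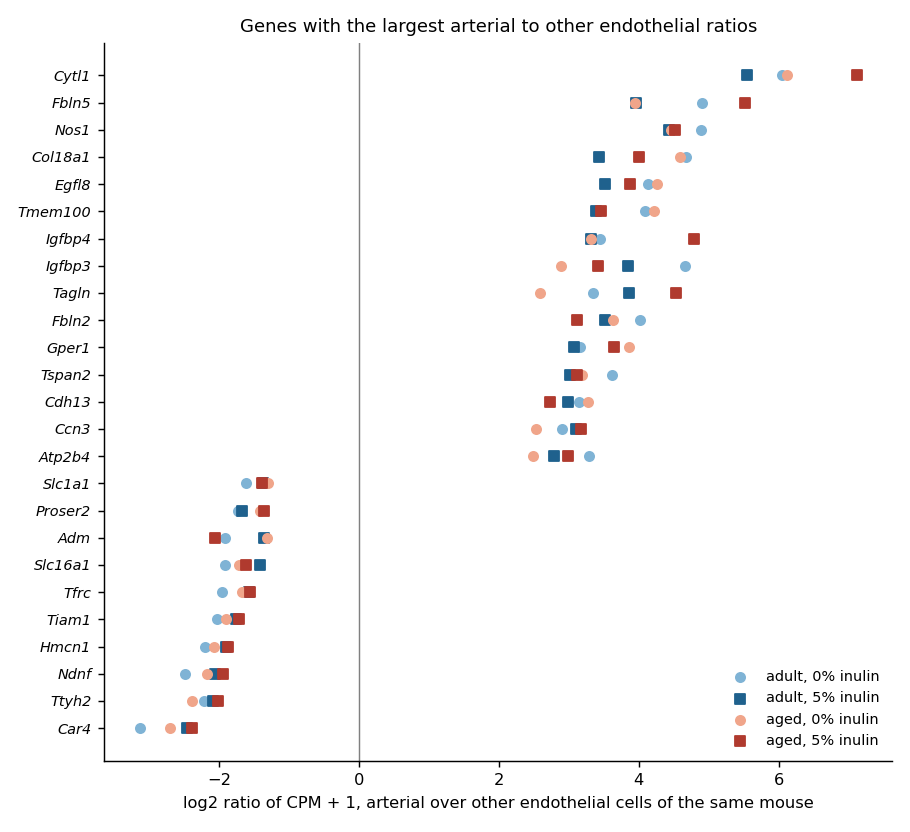
Log2 ratio of CPM + 1 between arterial and other endothelial cells for the 15 genes highest and the 10 lowest in arterial cells, 1 point per mouse. All points of the upper 15 genes lie above 2 and all points of the lower 10 below -1, and the mice of both ages intermingle.

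The comparison type was not resolved further. Of the 6089 other endothelial cells, 5863 carried at least 4 UMIs of the capillary genes Mfsd2a, Slc16a1, Tfrc and Spock2, a limit that arterial cells can pass too, since Spock2 read 1680.0 to 2269 CPM in them. Only 24 cells carried venous markers and fewer capillary UMIs, too few for a venous comparison, so arterial and venous cells were not compared here. Across 12 sums (arterial, capillary-marked and remaining endothelial cells of each mouse), the genes whose log2 CPM followed the summed rule markers most closely were Tm4sf1 (Pearson's r of 0.966), Cytl1 (0.954) and Glul (0.938). The sums share libraries, and r is given as a description. Tm4sf1, a surface protein of endothelium, read 2266 and 2053 CPM in adult and 1910.0 and 1637 CPM in aged arterial cells against 446 to 574 CPM in other endothelial cells. Glul, glutamine synthetase, read 1247 to 1508 CPM against 630.0 to 691 CPM.

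Summed arterial and capillary marker levels were graded along the marker load. Cells were split by marker UMIs per 10000. Values are sums over the cells of a bin. They cannot tell cells of intermediate identity from a mixture of arterial cells with other cells or doublets. From endothelial cells with 0 marker UMIs to arterial cells with 60 or more per 10000, the summed level of the 17 other arterial markers went from 1685 and 1708 to 7990 and 7966 CPM in adult mice. In aged mice it went from 1740 and 1781 to 7952 and 8376 CPM. The 10 capillary markers ran the other way, from 9360 and 9515 to 2744 and 2395 CPM in adult and from 9739 and 10310 to 3491 and 2771 CPM in aged mice. Each mouse had cells in all 4 arterial bins, with 22.3 to 27.1% of arterial cells under 10 per 10000 and 27.1 to 30.2% at 60 or more. The weakest bin held the deepest cells, with medians of 10120 to 12860 UMIs against 7003 to 9525 in the strongest. It had 2523 to 2902 CPM of other arterial and 6550 to 7981 CPM of capillary markers. Gja5 was highest in the strongest bin, at 26.9 and 27.1 CPM in adult and 9.27 and 19.2 CPM in aged mice. It read 1.52 to 4.95 CPM at 30 to 60 per 10000 and at most 1.22 CPM in the 2 weakest arterial bins. Stmn2 was already at 188 to 270 CPM in the weakest bin, against 33.3 to 103 CPM in cells with 0 marker UMIs.

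**Figure D2:**
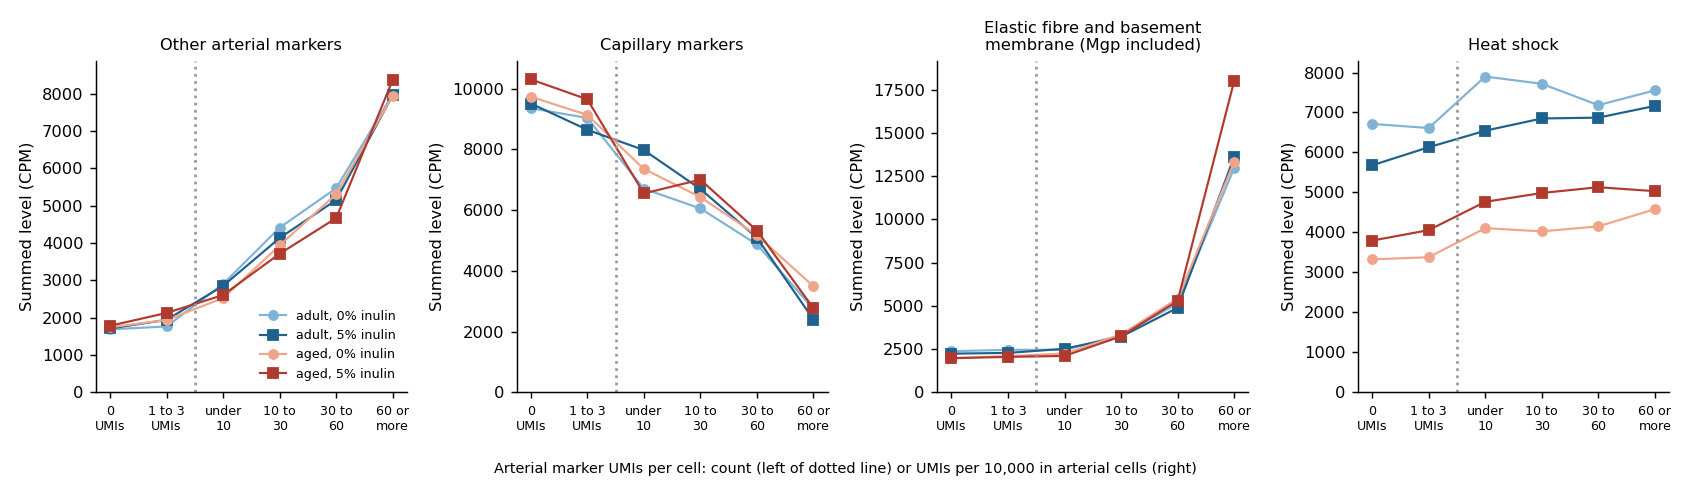
Summed CPM of 4 gene lists along arterial marker load, with a line per mouse. Cells left of the dotted line are other endothelial cells with 0 or 1 to 3 marker UMIs, and those to its right are arterial cells binned by marker UMIs per 10000. Other arterial genes are highest and capillary genes lowest in the strongest bin of all 4 mice. The matrix sum is highest there too, but it includes Mgp of the rule, whose UMIs help to set the bins, so its peak is no result. The heat shock lines of the aged mice lie below those of the adult mice in every bin.

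Arterial cells carried more smooth muscle RNA than other endothelial cells. The 9 smooth muscle genes summed to 1037 and 1563 CPM in adult and 1148 and 1183 CPM in aged arterial cells against 122 to 220 CPM elsewhere. Over the 4 mice together Acta2 was the most abundant, at 251 to 425 CPM. In the aged mouse fed 0% Tagln (310 CPM) was slightly above Acta2 (306 CPM). At least 3 UMIs of Acta2, Tagln and Myh11 were found in 12.9% and 11.2% of arterial cells of adult and 9.88% and 10.3% of those of aged mice, against 0.578 to 1.05% of other endothelial cells. In each mouse 10 cells held 66.2 to 81.4% of these UMIs. Scrublet, a doublet caller, marked 4.81% and 2.70% of arterial cells of adult and 3.49% and 3.71% of those of aged mice. The calls were kept in. Pericyte genes, limited by the rule, summed to 703 to 1030 CPM, fibroblast genes to 31.6 to 69.8 CPM, astrocyte genes to 366 to 474 CPM, oligodendrocyte genes to 12.8 to 19.1 CPM and neuronal genes to 19.9 to 96.2 CPM. The most abundant genes were Rgs5 for pericytes, Col1a2 for fibroblasts, Slc1a2 for astrocytes and Meg3 for neurons, and no marker of these lists was at 0. Choroid plexus genes summed to 5674 and 8991 CPM in adult and 6399 and 9526 CPM in aged mice. Their leading gene Ttr was present in 96.6 to 99.5% of thinned arterial cells and 97.6 to 100% of thinned C1q-high barcodes.

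The share of endothelial cells that were arterial did not separate the ages. It was 29.2% (exact 95% binomial interval 27.2 to 31.2) and 24.8% (23.2 to 26.5) in adult mice. In aged mice it was 33.0% (30.7 to 35.4) and 28.5% (26.6 to 30.4). These intervals reflect counting error alone. Adult mice averaged 27.0% ± 3.06 and aged mice 30.7% ± 3.19 (SD, n = 2 per age). The two-sided p of the exact permutation test was 0.667, where 2 mice against 2 allow no p under 0.333. By diet the share was 31.1% ± 2.71 at 0% and 26.7% ± 2.58 at 5% inulin (SD, n = 2 per diet), with no overlap, and the exact permutation test gave the smallest two-sided p possible, 0.333. Without Mgp in the rule the age difference shrank from 3.74 to 0.723 percentage points, while that by diet was -4.67 points. Of 192 barcode sequences found in more than 1 mouse, 22 belonged to an arterial cell, none to arterial cells of 2 mice.

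The aged against adult comparison asked which genes of arterial endothelium differed between ages, with the diets pooled. Of 13690 genes tested by edgeR's quasi-likelihood test, 96 were called higher (0.701% of those tested) and 46 lower (0.336%) in aged mice, at an adjusted p under 0.05 and over 1.5-fold. The median log2 fold change of all genes was 0.01. Of the 11 heat shock genes listed, 5 were among those lower in aged mice. The cold-inducible genes Cirbp and Rbm3, Ifi203 and Mndal of the Ifi200 family, the metallothioneins Mt1 and Mt2 and 3 venous markers were among those higher. A further group of higher genes belonged to lymphocytes and plasma cells and sat mostly in few barcodes. Without the 62 arterial barcodes that held at least 3 UMIs of immune genes (4 and 1 in adult, 34 and 23 in aged mice), 57 genes were called higher and 45 lower, among them 52 of the 96 and 43 of the 46. Those immune genes were the T and NK cell list, the B and plasma cell list, Ptprc, Cd52 and Ccl5. Barcodes were thus picked by genes called here, and the loss of such calls was built in. Igkc was still called higher. Without Scrublet calls 24 were called higher and 14 lower.

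Chaperones bind unfolded proteins, and heat shock factor drives their genes through pairs of GAA repeats facing each other. None of the 11 listed was called higher in aged arterial cells, against 0.701% of all genes, so that count says little. All 11 had a log2 fold change below 0 (median -0.57), while 6990 of all 13690 genes were above 0. Promoters are shown for members among the 5 that were called. Of the 5, 3 had a RefSeq window (250 bases before to 50 after the start), and all 3 had a window that held the letters GAANNTTC, which read the same on both strands and occur in 7.86% of all 32851 windows. Such letters stood in 4 of their 6 windows, but both windows of Hsph1 overlap and hold the same site. The 150 bases before the start follow, 5′ to 3′ on the plus strand of GRCm38.p6, with the matches in capitals, for Hspb1 at chr5:135887769-135887918 and for the first of 3 Dnaja1 starts at chr4:40722318-40722467.
Hspb1: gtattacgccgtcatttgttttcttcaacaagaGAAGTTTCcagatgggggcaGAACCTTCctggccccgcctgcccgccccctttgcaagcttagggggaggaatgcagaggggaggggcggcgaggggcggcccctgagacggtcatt
Dnaja1: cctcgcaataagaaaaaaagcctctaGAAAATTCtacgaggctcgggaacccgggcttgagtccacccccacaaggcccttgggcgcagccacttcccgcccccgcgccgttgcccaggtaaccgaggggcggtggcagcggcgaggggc
The matches of Hspb1 begin 117 and 97 bases before its start and that of Dnaja1 124 bases before. The overlapping windows of Hsph1 share 1 match, 21 or 42 bases after the start. A match describes the letters and is not evidence of binding. Il1r1, the one of the called venous genes with windows, had a match in 1 of 2.

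Dnaja1 encodes a co-chaperone of the HSP40 class. It read 758 and 672 CPM in adult and 348 and 363 CPM in aged arterial cells. Both aged mice lay well below both adult mice. The log2 fold change was -0.98 (SE 0.087, adjusted p = 0.00392), and it was past the threshold in 16 of 16 alternatives. Here and below, these include fits without a mouse, where an age has 1 mouse and the other age alone gives the spread. At 2000 UMIs per cell, 77.2% and 72.5% of arterial cells of adult and 49.3% and 49.7% of those of aged mice had a UMI of Dnaja1. Hspa8, the constitutive HSP70, read 1945 and 1823 CPM in adult and 1108 and 1117 CPM in aged mice (log2 fold change -0.74, SE 0.079, adjusted p = 0.00924). Hspb1, the small heat shock protein HSP27, read 2240.0 and 2138 CPM and then 1254 and 1468 CPM (-0.66, SE 0.094, adjusted p = 0.023). Groups did not overlap for either gene. Hsph1, an HSP110 nucleotide exchange factor, read 102 and 76.4 CPM and then 23.4 and 34.9 CPM, the steepest change of the list (-1.57, SE 0.19, adjusted p = 0.0117). Hsp90aa1, the inducible HSP90, read 788 and 607 CPM and then 356 and 425 CPM (-0.81, SE 0.13, adjusted p = 0.0352).

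The calls of Hspb1 and Hsp90aa1 were lost in 6 and 4 of 16 alternatives, with adjusted p-values up to 0.134 and 0.131. The other members had smaller changes and were not called. Hspd1 (mitochondrial HSP60) had a log2 fold change of -0.50 at an adjusted p of 0.0476, under the fold threshold, and Dnajb1 one of -0.57 at an adjusted p of 0.0525. The stress-induced HSP70 genes Hspa1a (-0.22) and Hspa1b (-0.32), which are near-identical copies and uncertain as single genes, did not pass, with adjusted p-values of 0.591 and 0.324. Hspe1 and Bag3 had log2 fold changes of -0.20 and -0.33. The 10 lower genes named by lowest adjusted p were Dnaja1, Hspa8 and Hsph1 of the list and, outside it, Cacybp, Ahsa2, Serpinh1, Fkbp4, Stip1, Chordc1 and the matricellular gene Ccn3. Cacybp, which binds calcyclin and is an HSP90 client regulator, read 176 and 169 CPM in adult and 93.4 and 90.5 CPM in aged mice (-0.89, SE 0.075, adjusted p = 0.00359). Stip1, which hands clients from HSP70 to HSP90, read 80.0 and 72.0 CPM and then 43.5 and 44.4 CPM (-0.77, SE 0.091, adjusted p = 0.0112). Serpinh1, the collagen chaperone HSP47, read 198 and 191 CPM and then 119 and 124 CPM (-0.66, SE 0.074, adjusted p = 0.0106). Hsp90ab1, the constitutive HSP90, named after its values were seen, read 2571 and 2253 CPM and then 1473 and 1507 CPM (-0.67, SE 0.088, adjusted p = 0.0182).

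The lower chaperone levels of aged mice were seen in every bin of arterial marker load, in other endothelial cells and in C1q-high barcodes. They were thus not particular to arterial cells. In arterial cells under 10 marker UMIs per 10000 the 11 genes summed to 7900.0 and 6544 CPM in adult and 4106 and 4764 CPM in aged mice, and at 60 or more to 7553 and 7164 CPM and then 4579 and 5031 CPM. Other endothelial cells read 6658 and 5924 CPM in adult and 3357 and 3935 CPM in aged mice. The test of the difference between the age effects of the types, fitted with the mouse as a block, called none of the 11. Over all 14567 genes it called 0.206% higher and 0.13% lower, so that count alone says little. For Dnaja1 the difference was -0.01 (SE 0.069, adjusted p = 0.985) and for Hspa8 -0.02 (SE 0.056, adjusted p = 0.96). In C1q-high barcodes, which are not endothelial, Dnaja1 read 416 and 380 CPM in adult and 217 and 197 CPM in aged mice, and Hspa8 1709 and 1544 CPM and then 1119 and 1131 CPM. Hsph1 read 100.1 and 86.6 CPM there and then 36.1 and 29.1 CPM. Whether the libraries of the ages differ as wholes cannot be told apart from age.

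Cirbp and Rbm3, which encode cold-inducible RNA-binding proteins and were not a fixed list, went the other way. Cirbp read 39.1 and 44.0 CPM in adult and 92.2 and 92.3 CPM in aged arterial cells (1.17, SE 0.092, adjusted p = 0.00261). Its groups stood far apart beside the gap between mice of an age. Rbm3, its relative, named after its values were seen, read 179 and 218 CPM and then 344 and 358 CPM (0.84, SE 0.10, adjusted p = 0.0133). Both had a like pattern in other endothelial cells, where Cirbp read 29.9 and 38.6 CPM in adult and 78.6 and 83.4 CPM in aged mice. The same held in C1q-high barcodes, with 45.5 and 54.1 CPM and then 82.6 and 73.4 CPM of Cirbp and 179 and 180 CPM and then 356 and 384 CPM of Rbm3. The difference of the age effects was not past the threshold for Cirbp (adjusted p = 0.768) or Rbm3 (adjusted p = 0.917).

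**Figure D3:**
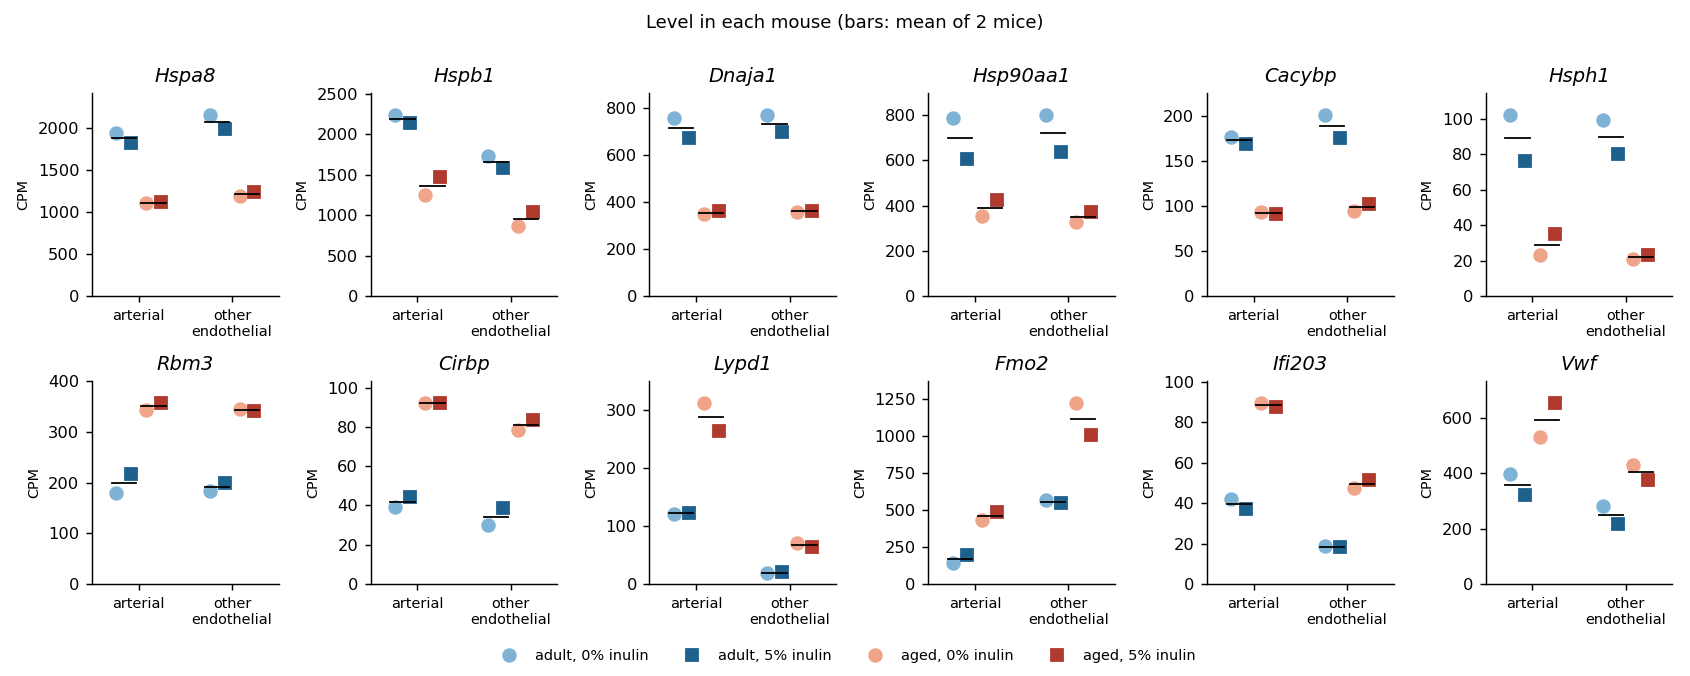
CPM of 12 genes in arterial and other endothelial cells, 1 point per mouse, with a bar at the mean of each age. In arterial cells the 6 chaperone and co-chaperone genes from Hspa8 to Hsph1 are lower in both aged mice than in either adult mouse, and the 6 genes from Rbm3 to Vwf are higher.

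Lypd1, a GPI-anchored modulator of nicotinic receptors, and Fmo2, a flavin monooxygenase, gave clear changes in single cells. Lypd1 read 122 and 122 CPM in adult and 313 and 264 CPM in aged arterial cells (1.26, SE 0.099, adjusted p = 0.00261). Thinned to equal depth, it was seen in 17.8% and 16.7% of arterial cells of adult and 37.6% and 36.1% of those of aged mice, against 0.0 to 0.4% of C1q-high barcodes. It was lower outside arterial cells, with 18.1 and 20.4 CPM in other endothelial cells of adult and 70.2 and 64.3 CPM in those of aged mice. Its level peaked at 30 to 60 marker UMIs per 10000 in adult and aged mice alike (172 and 159 CPM, then 418 and 345 CPM) and was lower in the strongest bin. Fmo2 read 140 and 195 CPM in adult and 433 and 487 CPM in aged arterial cells (1.48, SE 0.15, adjusted p = 0.00792), against 549 to 564 CPM and 1004 to 1225 CPM in other endothelial cells. Thinned shares for Fmo2 were 9.59% and 15.9% in adult and 33.0% and 32.6% in aged arterial cells, and 0.2 to 2.8% in C1q-high barcodes. In the strongest arterial bin Fmo2 was at 19.7 and 52.5 CPM in adult and 115 and 173 CPM in aged mice, where the capillary list summed to 2744 and 2395 CPM and then 3491 and 2771 CPM. The part of capillary RNA in the Fmo2 difference was not tested. S100a6 (calcyclin) read 131 and 119 CPM and then 289 and 236 CPM (1.09, SE 0.11, adjusted p = 0.00866). For none of these 3 did the groups overlap.

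Of 17 interferon response genes listed, 1 was called higher and 0 lower, against 0.701% and 0.336% of all genes, with a median log2 fold change of 0.10. It was Ifi27l2a, at 62.2 and 49.5 CPM in adult and 124 and 167 CPM in aged mice (1.42, SE 0.15, adjusted p = 0.00924). The general targets Ifit1 (0.05) and Ly6e (0.00) did not pass. Ifi203 and Mndal, neighbouring genes of the Ifi200 family of DNA sensors that share sequence and are uncertain as single genes, were named by lowest adjusted p. Ifi203 read 42.1 and 37.0 CPM in adult and 89.7 and 87.7 CPM in aged mice (1.19, SE 0.093, adjusted p = 0.00261), and Mndal 31.1 and 27.3 CPM and then 65.4 and 62.2 CPM (1.15, SE 0.10, adjusted p = 0.00373). None of the 14 genes of MHC class I presentation was called (median 0.27). H2-K1 read 869 and 1389 CPM in adult and 1594 and 1375 CPM in aged mice, so the adult mouse fed 5% inulin lay within the aged range and the low value was that of 1 adult mouse.

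Of 11 venous markers listed, 10 were tested, all 10 had a log2 fold change above 0 (median 0.73), and 3 were called higher, Vwf and Il1r1 among them. Over all 13690 genes, 6990 were above 0 and 0.701% were called higher. Vwf, von Willebrand factor, read 396 and 322 CPM in adult and 533 and 655 CPM in aged mice (0.75, SE 0.13, adjusted p = 0.0373). In other endothelial cells Vwf read 283 and 217 CPM and then 431 and 377 CPM, and the difference of the age effects was 0.00 (adjusted p = 0.998). Il1r1, the interleukin-1 receptor, read 35.1 and 33.9 CPM in adult and 57.1 and 66.4 CPM in aged arterial cells (0.87, SE 0.10, adjusted p = 0.0112), with 53.1 to 68.6 CPM elsewhere. The ages overlapped in arterial cells with 60 or more marker UMIs per 10000, where Il1r1 read 12.9 and 10.9 CPM in adult and 10.4 and 19.7 CPM in aged mice. There Vwf read 503 and 432 CPM and then 448 and 684 CPM, and the venous list summed to 1452 and 1427 CPM and then 1249 and 2080.0 CPM. The call of Vwf was lost in 9 of 16 alternatives, with adjusted p-values up to 0.129. Lcn2, Lrg1 and Ackr1 were carried by 1 mouse, the aged mouse fed 5% inulin, and were not called by age. They read 128, 70.3 and 31.3 CPM in it against at most 24.5, 26.3 and 7.85 CPM in the others. In edgeR's test of the difference of the age effects, Lcn2 was called (3.19, adjusted p = 0.0197).

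Counts for the lists of arterial identity and its signals stand beside 0.701% higher and 0.336% lower over all genes. Of the 17 other arterial markers, Cdh13 (T-cadherin) was called higher, at 107 and 90.0 CPM in adult and 154 and 142 CPM in aged mice (0.61, SE 0.099, adjusted p = 0.0346), and 0 were called lower (median -0.11). The call of Cdh13 was lost in 7 of 16 alternatives. None of 20 Notch pathway genes passed (median -0.14). The ligand Dll4 read 151 and 108 CPM in adult and 89.1 and 67.4 CPM in aged mice without overlap, yet missed the threshold (-0.71, SE 0.17, adjusted p = 0.117). In other endothelial cells Dll4 read 65.2 and 61.5 CPM and then 39.8 and 39.0 CPM, and the age effects differed by -0.07 (adjusted p = 0.925). Gja5 (-0.95, SE 0.27, adjusted p = 0.162) and Efnb2 (-0.47, SE 0.11, adjusted p = 0.113) also missed it. Of the 17 other arterial markers, 10 had a log2 fold change below 0 and 7 above. Cytl1 (0.70), Fbln5 (0.42), Clu (0.38) and Stmn2 (0.31) were above 0 and not called. Of VEGF, angiopoietin and semaphorin genes 0 of 15 tested were called, of 16 matrix genes 0, of 10 capillary markers 0, of 19 barrier genes 0, of 12 endothelial activation genes 0 and of 9 senescence genes 0. Their medians were -0.14, 0.03, 0.16, -0.02, 0.63 and -0.05. The VEGF list includes Flt1, the matrix list Mgp and the barrier list Cldn5. The rule picked cells on these genes, so it bears on the counts and medians of their lists. Biglycan (Bgn), a matrix proteoglycan, came nearest among the matrix genes, with 51.2 and 54.8 CPM and then 80.9 and 131 CPM (1.03, SE 0.20, adjusted p = 0.0576). A miss does not show that a gene was unchanged.

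Over all genes the shares were 0.701% higher and 0.336% lower. Of 20 vasoactive and shear genes, Ptgs2 (cyclooxygenase-2) was called higher, at 23.1 and 34.9 CPM in adult and 68.3 and 112 CPM in aged mice (1.66, SE 0.25, adjusted p = 0.0286), and the median was -0.16. Klf2 and Klf4, transcription factors of laminar flow, were not called, with log2 fold changes of -0.31 and -0.28. Of 13 immediate early genes the stress factor Atf3 was called lower, at 95.8 and 92.0 CPM in adult and 49.4 and 35.4 CPM in aged mice (-1.14, SE 0.14, adjusted p = 0.0156, 16 of 16 alternatives). Of 22 BMP and TGF-beta genes, among them Mgp of the rule, the ligands Bmp4 and Bmp6 were called higher. Bmp4 read 15.1 and 10.8 CPM in adult and 34.7 and 43.2 CPM in aged mice (1.63, SE 0.17, adjusted p = 0.00924). The call was lost with cells thinned to 2000 UMIs (adjusted p = 0.528), where a UMI of Bmp4 was seen in 1.88% and 2.04%, then 1.59% and 2.85% of cells, and 10 cells held 91.0% of its UMIs in the aged mouse fed 0%. Bmp6 read 7.58 and 8.27 CPM and then 17.1 and 17.2 CPM (1.14, SE 0.16, adjusted p = 0.023), with 43.8 to 72.1% of its UMIs in 10 cells of a mouse. Without immune barcodes the calls of Bmp4 (adjusted p = 0.199) and Bmp6 (adjusted p = 0.166) were both lost. The metallothioneins Mt1 and Mt2, named after their values were seen, read 238 and 262 CPM and then 415 and 498 CPM (0.89, SE 0.10, adjusted p = 0.0112), and 48.6 and 52.6 CPM and then 79.9 and 103 CPM (0.88, SE 0.12, adjusted p = 0.0232). Of 79 ribosomal protein genes tested, 77 had a log2 fold change above 0 and 0 were called (median 0.23), while 6990 of all 13690 genes were above 0. No gene of nuclear oxidative phosphorylation (0 of 75, median 0.10) or of the mitochondrial genome (0 of 15, median 0.12) was called.

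**Figure D4:**
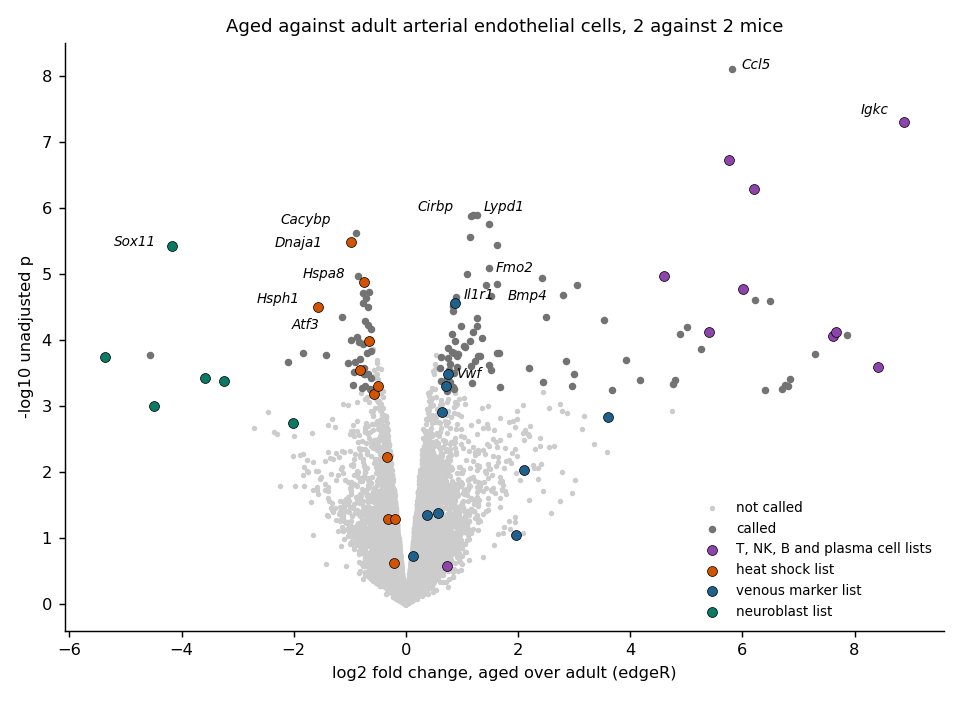
Log2 fold change of aged over adult arterial cells against -log10 of the unadjusted p for 13690 genes, with 4 gene lists coloured and called genes in dark grey. Heat shock genes lie to the left of 0 at moderate size, venous markers to the right, and the lymphocyte and plasma cell genes reach log2 fold changes up to 8.89.

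The largest fold changes belonged to RNA of immune cells, most of it in few barcodes. Igkc, the kappa light chain of immunoglobulin, read 0.632 and 1.82 CPM in adult and 778 and 414 CPM in aged arterial cells (8.89, SE 0.46, adjusted p = 0.000336), and in aged mice 10 cells held 95.9% and 97.3% of its UMIs. At 2000 UMIs a cell it was seen in 9.94% and 3.52% of aged arterial cells, 11.9% and 7.17% of other endothelial cells and 10.4% and 4.8% of C1q-high barcodes, so the share was at background. In adult mice these shares were 0.171 to 0.6%. Ccl5, a chemokine of T and NK cells, read 0.474 and 0.981 CPM and then 45.1 and 39.8 CPM (5.82, SE 0.24, adjusted p = 0.000109), with 97.8% and 94.6% of its UMIs in 10 cells of each aged mouse. Ighm read 2.53 and 1.40 CPM and then 187 and 98.6 CPM (6.21, SE 0.43, adjusted p = 0.00178). Against 0.701% of all genes, all 5 T and NK cell genes were called higher (Cd3e, Cd3d, Trbc2, Nkg7 and Cd8a), summing to 0.789 and 0.140 CPM in adult and 25.0 and 24.0 CPM in aged mice. Of 6 B and plasma cell genes, a list added after values were seen, 5 were tested and 4 called, and their sum was 6.47 and 6.03 CPM and then 1001 and 534 CPM. Lyz2, of myeloid cells, read 13.9 and 13.6 CPM and then 35.6 and 40.4 CPM (1.49, SE 0.12, adjusted p = 0.00296).

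With 0.701% of all genes called higher and 0.336% lower, Ctss was called higher of 10 microglial genes, and the list summed to 196 and 184 CPM in adult and 241 and 234 CPM in aged mice. Hbb-bt, of 4 red cell genes, was called higher (3.93, SE 0.61, adjusted p = 0.0302). The red cell list, led by Hbb-bs, summed to 54.8 and 1506 CPM and then 6293 and 4266 CPM, and 10 cells held 99.0% and 98.2% of the Hbb-bs UMIs of aged mice. Of 6 neuroblast genes 4 were called lower (Sox11, Dcx, Dlx1 and Igfbpl1). They summed to 33.3 and 27.1 CPM in adult and 2.80 and 2.54 CPM in aged arterial cells, led by Sox11, whose UMIs lay in 14 and 10 cells of the adult mice. Neutrophil genes summed to 56.8 and 177 CPM and then 366 and 87.1 CPM, with 0 of 5 called. The neuroblast and neutrophil lists were added after values were seen. No gene of the smooth muscle, pericyte, fibroblast, astrocyte, oligodendrocyte, neuron or choroid plexus lists was called. The part of these RNAs in the other age differences was not tested beyond the count without immune barcodes.

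Diet was compared with the ages pooled, to ask whether inulin changed arterial gene expression. With 5% against 0% inulin, 0 of 13690 genes were called (0%) by edgeR, and 235 had an unadjusted p under 0.05. DESeq2 called 3 genes, Myoc, Meg3 and Enpp2. Enpp2 is abundant in choroid plexus, and 10 cells held up to 72.4% of its arterial UMIs in a mouse. With age as a covariate edgeR called Ackr1 and Myoc higher.

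The age effect was then compared between arterial and other endothelial cells of the same mice. Of 14567 genes, 30 (0.206%) had a higher and 19 (0.13%) a lower age effect in arterial cells. Clu (clusterin, a secreted chaperone) read 412 and 318 CPM in adult and 424 and 507 CPM in aged arterial cells, and 261 and 235 CPM and then 158 and 186 CPM in other endothelial cells. The arterial groups were barely apart and the arterial age effect was not called (0.38, SE 0.13, adjusted p = 0.226), but the age effects differed by 0.87 on the log2 scale (SE 0.082, adjusted p = 0.00349). Chchd10, a mitochondrial protein, read 80.5 and 94.5 CPM and then 79.5 and 143 CPM in arterial cells, and 141 and 167 CPM and then 74.1 and 130 CPM elsewhere (difference 0.91, SE 0.072, adjusted p = 0.000938). Up to 68.8% of its arterial UMIs lay in 10 cells of a mouse, and the difference was -0.10 when cells were thinned to 2000 UMIs.

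Of the 19 genes with a lower age effect in arterial cells, 4 of those named by lowest adjusted p were at a higher level there than in other endothelial cells. Ccnd1 (cyclin D1) read 199 and 182 CPM in adult and 184 and 201 CPM in aged arterial cells, against 40.3 and 47.8 CPM and then 78.3 and 92.2 CPM in other endothelial cells (difference -0.95, SE 0.11, adjusted p = 0.00751). Fosb, an immediate early gene, read 57.5 and 87.0 CPM and then 78.4 and 92.7 CPM in arterial cells, against 8.53 and 12.0 CPM and then 22.9 and 28.6 CPM (-1.12, SE 0.12, adjusted p = 0.00751). Ntn4, netrin-4, read 62.2 and 54.7 CPM and then 89.2 and 70.7 CPM, against 12.6 and 13.2 CPM and then 40.4 and 36.6 CPM (-1.15, SE 0.13, adjusted p = 0.00751). H2-Q6, an MHC class I gene with close copies and uncertain as a single gene, read 37.6 and 83.8 CPM and then 196 and 133 CPM, against 11.0 and 28.6 CPM and then 114 and 74.2 CPM (-0.83, SE 0.095, adjusted p = 0.00751). Each of these 4 was higher in arterial cells in every mouse, as were 30.3% of the 3785 genes at 50 CPM. Their smaller ratio to other endothelial cells in aged mice follows from how they were named and is no further result.

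**Figure D5:**
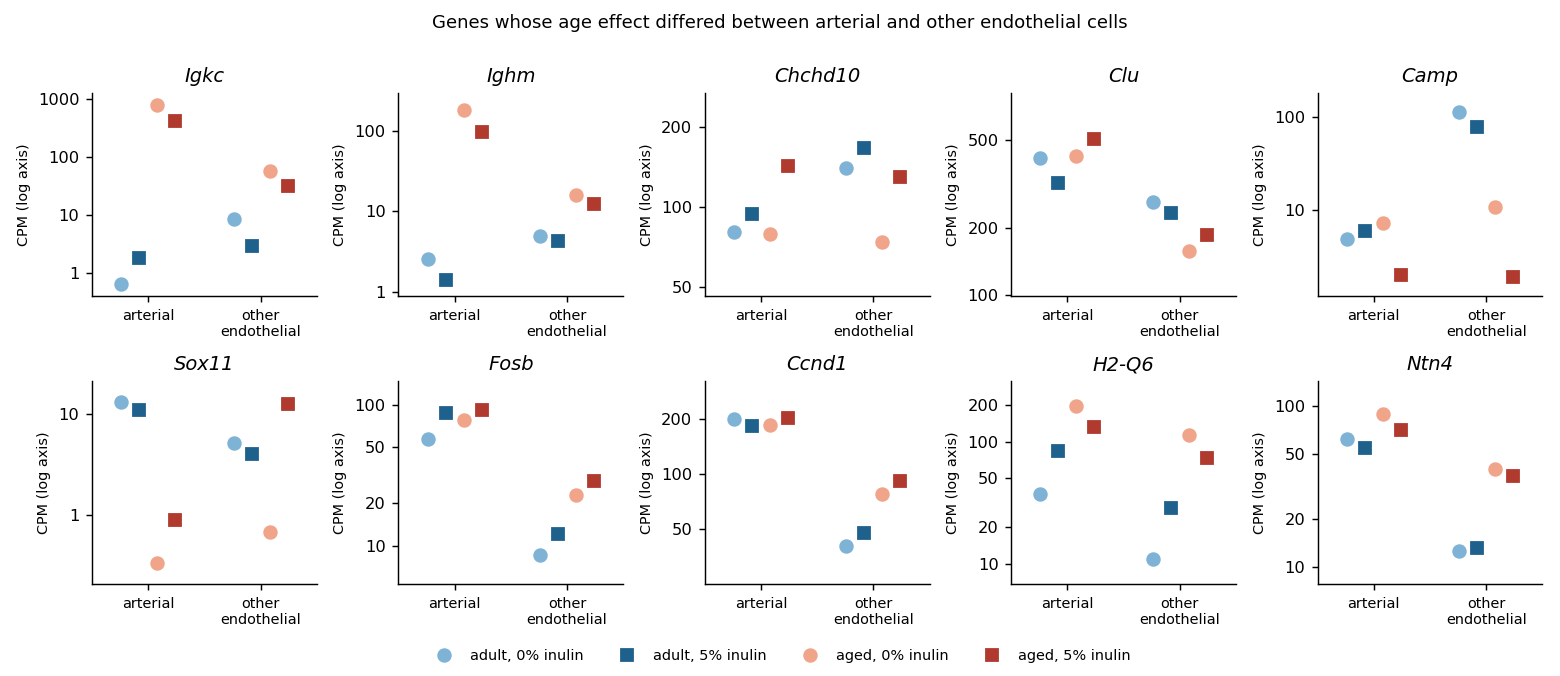
CPM on a log axis of the 10 genes named for a difference in age effect, in arterial and other endothelial cells, 1 point per mouse. For Fosb, Ccnd1, H2-Q6 and Ntn4 the distance between the types on this axis, their ratio, is smaller in aged than in adult mice. That follows from how they were named. Igkc and Ighm are at 98.6 to 778 CPM in aged arterial cells.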

How the data were processed

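According to the methods, the authors counted reads with Cell Ranger 3.1.0 against GRCm38 with Ensembl release 98, filtered by biotype. The matrices also list mitochondrial ribosomal RNA, so whether they come from that reference is not known. What they deposited is 1 matrix of raw UMI counts for each mouse, with genes against barcodes and no normalization. Groups came from the sample labels. The members and gene lists were chosen with earlier results of these data known.

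UMIs were summed per mouse and cell type and tested with edgeR 4.0.16 (filterByExpr, TMM, quasi-likelihood), with Benjamini-Hochberg adjustment over all genes and calls made where the adjusted p was below 0.05 and the change exceeded 1.5-fold. The age difference between types was fitted with the mouse as a block. DESeq2 1.42.0 was an alternative. Genes were named by lowest adjusted p (10 each way, non-overlapping mice, at least 20 CPM), by list, and by ratio to other endothelial cells. Thinning used 2000 UMIs (seed 7, 500 C1q-high barcodes a mouse). Scrublet ran in scanpy 1.11.5 (expected rate 0.08). Tests were tested on simulated data. Coordinates are from GENCODE vM21. Results for a few listed genes are not reported here.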

Additional observations from a re-analysis of the deposited data

Results flagged for a closer look

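Each result here stood out because the age effect differed between arterial and other endothelial cells of the same mice in edgeR's test of that difference. On the log2 scale the differences, arterial minus other, were 5.81 for Igkc, 4.48 for Ighm, 0.91 for Chchd10, 0.87 for Clu and 3.68 for Camp, and -4.89 for Sox11, -1.12 for Fosb, -0.95 for Ccnd1, -0.83 for H2-Q6 and -1.15 for Ntn4. Without immune barcodes the difference turned to -0.63 for Igkc and -0.42 for Ighm, and with cells thinned to 2000 UMIs to -0.10 for Chchd10. Igkc and Ighm were among the genes that picked the immune barcodes, so a fall in their differences was built in. Camp, a neutrophil gene, read 4.89 and 6.03 CPM in adult and 7.41 and 2.03 CPM in aged arterial cells and 113 and 78.1 CPM and then 10.9 and 1.93 CPM in other endothelial cells (SE 0.37, adjusted p = 0.00409). Sox11, a neuroblast gene, read 13.3 and 10.9 CPM and then 0.329 and 0.887 CPM in arterial cells, and 5.18 and 3.96 CPM and then 0.673 and 12.6 CPM in other endothelial cells (SE 0.47, adjusted p = 0.00349). Igkc (SE 0.42) and Ighm (SE 0.34), both with an adjusted p of 0.000925, sat mostly in 10 cells of each aged mouse. No outlier could be looked for, since each age and diet had 2 mice.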

How the results depend on the processing

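The counts of calls moved with the settings. Of the 142 genes called by age, those still tested kept their direction in each alternative, but for 1 of 134 without Scrublet calls. Genes called higher and lower by age (96 and 46) were 395 and 181 with no filter on low counts, 24 and 14 without Scrublet calls, 59 and 29 with at least 6 marker UMIs, 59 and 28 without Mgp, and 39 and 19 in cells thinned to 2000 UMIs. Under an upper limit on UMIs 76 were lower. Added after the data were seen, the fit without immune barcodes gave 57 higher and that with at least 20 marker UMIs 27 lower. Leaving out 1 mouse gave 35 (without the adult mouse fed 0%) to 256 (without the aged mouse fed 0%) higher and 11 to 99 lower. By diet, DESeq2 called 2 higher and 1 lower, no filter 9 and 1, and age as a covariate 2 higher. For the difference in age effect (30 and 19), DESeq2 gave 12 and 10, no filter 259 and 91, no Scrublet calls 14 and 7, thinning 9 and 6, and no immune barcodes 56 and 35. The upper limit on UMIs gave 10 higher, at least 6 marker UMIs 64 higher, no smooth muscle UMIs 11 lower, and leaving out a mouse 45 to 206 higher and 13 to 62 lower. Of the 49 genes called for the difference, direction was not kept by 3 of the 48 tested without immune barcodes, 2 of 49 under the limit on UMIs, 1 of 49 without Scrublet calls and 1 of 41 when thinned. Among the named genes it reversed for Igkc (-0.63) and Ighm (-0.42) without immune barcodes, which these genes helped to pick. It also reversed for Chchd10 (-0.10) when thinned. Of 834 values of single genes, 696 kept direction and call, 135 lost the call and 3 reversed. The cause of these shifts was not tested. The labels number no replicates, but each diet had 1 mouse of each age. With diet as a covariate, which sets mice of 1 diet beside each other, age gave 102 higher and 49 lower calls, and 120 of the 142 remained called. The 6072599 to 7889675 arterial UMIs per mouse limit genes of a few CPM.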
